A study of Mus musculus with 9 samples.

Results

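Alveolar type 1 marker genes were followed through RNA sequencing of smooth muscle cells that had been sorted by fluorescence from mouse lung. The set was 8 genes chosen by name, Ager, Hopx, Rtkn2, Aqp5, Cldn18, Pdpn, Akap5 and Emp2, and all 8 were among the 21049 genes of the table. Gene expression was measured in 9 libraries, 3 in each of 3 groups. SmMCll, from mice carrying tg-Acta2-GFP, were total pulmonary smooth muscle cells, those of veins among them. PASMCs were pulmonary arterial smooth muscle cells from ASMC-effector mice of the genotype Cspg4/Acta2-CreER/R26-GFP, and BSMCs were bronchial smooth muscle cells from NVSMC-effector mice of the genotype Chrm2/Acta2-CreER/R26-GFP. All groups are labelled as treated with tamoxifen, 0.75 mg per 10 g body weight for 3 days, and no age is given. An Acta2 promoter is part of the marking in all groups. In SmMCll, any cell that uses that promoter could therefore enter the sort. Cspg4 and Chrm2 are also named in the genotypes of PASMCs and BSMCs, so Acta2 need not be the only gene that sets those sorts. Since mouse line and sort differed along with the cell population, these cannot be told apart in any comparison. Whether the replicates of a group are different animals is not given.

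Alveolar type 1 cells are the thin, wide epithelial cells through which gas passes between air and capillary blood. They arise from alveolar type 2 cells or from common progenitors, under the transcription factor Nkx2-1 and the Hippo pathway effectors Yap1 and Wwtr1. Their marker genes encode a surface receptor (Ager), a mucin-like surface protein (Pdpn), a water channel (Aqp5), a tight junction protein (Cldn18), a tetraspan membrane protein (Emp2), a transcriptional cofactor (Hopx) and a pair of signalling scaffolds (Rtkn2 and Akap5). Several of them are also known from other cells: Pdpn from mesothelium, lymphatic endothelium and fibroblasts, Hopx from muscle and lymphocytes, Cldn18 from alveolar type 2 cells, and Emp2 from many cell types.

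Values are normalized read counts, given by library or as mean ± SD with n = 3 per group. Implied sequencing depth was 8.93 to 9.90 M reads in SmMCll, 8.92 to 10.0 M in PASMCs and 6.39 to 9.33 M in BSMCs. The smooth muscle genes that define the sorted cells were present in each group. Myh11, the smooth muscle myosin heavy chain, averaged 10927 ± 1263 in SmMCll, 11958 ± 674 in PASMCs and 10536 ± 1196 in BSMCs. Chrm2, the muscarinic receptor named in the genotype of the BSMCs, was not highest under that label. It had 199 to 398 in libraries labelled PASMCs and 115 to 223 in libraries labelled BSMCs, ranges that overlap. Leukocyte markers stood apart in the libraries labelled BSMCs, where they were highest. Leukocyte marker counts, scaled to the library total as CPM, summed to 22.4 to 42.6 CPM in SmMCll, 2.47 to 7.71 CPM in PASMCs and 611 to 993 CPM in BSMCs. Ptprc and Itgam, which define leukocytes, were at 0 in all PASMCs libraries. The 12 smooth muscle and pericyte markers summed to 3937 to 4340 CPM in SmMCll, 4936 to 5397 CPM in PASMCs and 5062 to 6003 CPM in BSMCs. Of them 0 were higher and 5 lower in SmMCll against PASMCs, and 1 was higher and 9 lower in SmMCll against BSMCs. In bulk RNA of this kind, fewer cells of a type and less RNA per cell cannot be told apart.

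The marker genes did not move as a block. Ager and Hopx were lower in PASMCs than in either other group. Pdpn was higher in SmMCll than in either other group. Rtkn2 and Akap5 were lower in PASMCs than in BSMCs, Akap5 was also lower in SmMCll than in BSMCs, and Aqp5, Cldn18 and Emp2 were not called in any comparison. A gene was called at an adjusted p under 0.05 in limma, adjusted over the 15647 genes tested. Between PASMCs and BSMCs 0 of the 8 genes were higher and 4 lower. Of all tested genes 22.1% were called there, 13.2% higher and 8.88% lower. Between SmMCll and PASMCs 3 were higher and 0 lower, with 16.2% of all genes called, 9.39% higher and 6.83% lower. Between SmMCll and BSMCs 1 was higher and 2 were lower, with 41.9% of all genes called, 23.7% higher and 18.2% lower, so that 3 of 8 is no more than the background there. Groups without overlap were common among all genes. In PASMCs against BSMCs 1 of the 8 lay wholly higher and 5 wholly lower, where 35.2% of all genes did not overlap, 17.6% in each direction. In SmMCll against PASMCs 4 lay wholly higher, where 40.5% of all genes did not overlap, 22.6% higher and 18% lower. In SmMCll against BSMCs 2 lay wholly higher and 1 wholly lower, where 50.5% of all genes did not overlap, 26.6% higher and 23.9% lower. The median log2 fold change of the 8 genes was -1.0, 0.76 and -0.25 in these comparisons, against 0.05, 0.03 and 0.05 over all tested genes. All 8 passed the filter on low values.

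**Figure D1:**
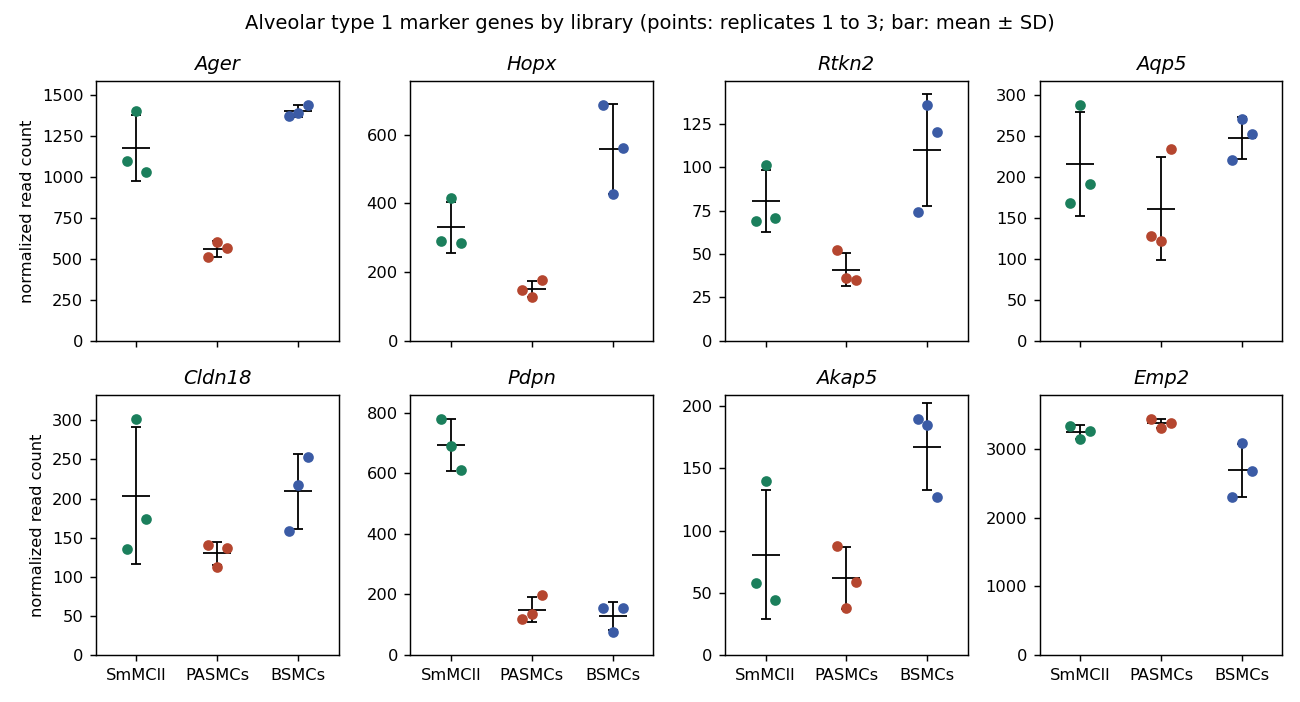
Normalized read count (vertical axis, from 0) of each of the 8 genes in the 9 libraries, with SmMCll in green, PASMCs in red and BSMCs in blue; points are libraries, and the bar gives the mean ± SD of 3. The PASMCs points lie below both other groups for Ager, Hopx and Rtkn2, and the SmMCll points lie above both for Pdpn.

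Ager encodes RAGE, the receptor for advanced glycation end products, which type 1 cells carry on their basal surface (ENSMUSG00000015452, mm39 chromosome 17, 34816836 to 34819910). Its counts were 1095, 1403 and 1028 in SmMCll libraries 1 to 3, 510, 601 and 568 in PASMCs, and 1370, 1390 and 1439 in BSMCs. The PASMCs libraries lay below all others, and the SmMCll range reached into that of the BSMCs. Ager was lower in PASMCs than in BSMCs (log2 fold change -1.32, SE 0.14, adjusted p = 7.04e-05) and higher in SmMCll than in PASMCs (1.06, SE 0.14, adjusted p = 0.000409). Between SmMCll and BSMCs the difference was -0.26 (95% interval -0.58 to 0.05, adjusted p = 0.150). That last difference passed after quantile normalization (-0.40, adjusted p = 0.0487).

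Hopx encodes a small homeodomain protein that does not bind DNA and that binds serum response factor, the factor of contractile genes (ENSMUSG00000059325, chromosome 5, 77234835 to 77262968). It stood at 292, 415 and 284 in SmMCll, 147, 129 and 177 in PASMCs, and 688, 427 and 563 in BSMCs. None of the 3 groups overlapped another, with BSMCs highest and PASMCs lowest. The fold change was -1.87 in PASMCs against BSMCs (SE 0.23, adjusted p = 0.000169), 1.11 in SmMCll against PASMCs (SE 0.23, adjusted p = 0.00532) and -0.75 in SmMCll against BSMCs (SE 0.23, adjusted p = 0.0207). The last call was lost without BSMCs replicate 1 (adjusted p = 0.0778), without SmMCll replicate 1 (0.0727) or 3 (0.087), and on implied reads without scaling (0.0873). Hopx and leukocyte RNA ranked alike within the BSMCs: replicates 1, 3 and 2 had 688, 563 and 427 counts of Hopx and 993, 939 and 611 CPM of leukocyte markers. That order was not particular to leukocytes. Alveolar type 2 markers had 689, 605 and 436 CPM there, and mesothelial and lymphatic endothelial sums ranked the same way. Within SmMCll Hopx and leukocyte markers also ranked alike. Replicates 2, 1 and 3 had 415, 292 and 284 counts of Hopx and 42.6, 25.9 and 22.4 CPM of leukocyte markers. Alveolar type 2 markers followed that order too, at 303, 284 and 276 CPM. In PASMCs replicates 1 to 3 leukocyte markers had 2.47, 4.28 and 7.71 CPM, an order that Hopx did not share. Lymphocyte markers summed to 11.2 to 16.7 CPM in SmMCll, 12.9 to 27.3 CPM in PASMCs and 71.5 to 82.0 CPM in BSMCs. Of these 10 markers, 7 were at 0 in all PASMCs libraries, 1 in all SmMCll libraries and 0 in all BSMCs libraries. The part of leukocyte and lymphocyte RNA in the Hopx difference was not tested. The non-coding gene Hopxos overlaps Hopx on the other strand and had at most 4 counts in any library.

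The promoter windows of Ager and Hopx are shown because these genes were called in the same direction in 2 comparisons, and that of Pdpn because it differed from both. Each window runs from 250 bases before to 50 bases after a RefSeq start, in build GRCm38.p6, whose coordinates are not those of the mm39 table. Capitals mark every match, on either strand, to 5 motifs: a TEAD site, an NKX2-1 core, a GC box, a TATA box and the CArG box bound by serum response factor. Hopx has 2 windows.
Ager, chr17:34597600-34597899, plus strand: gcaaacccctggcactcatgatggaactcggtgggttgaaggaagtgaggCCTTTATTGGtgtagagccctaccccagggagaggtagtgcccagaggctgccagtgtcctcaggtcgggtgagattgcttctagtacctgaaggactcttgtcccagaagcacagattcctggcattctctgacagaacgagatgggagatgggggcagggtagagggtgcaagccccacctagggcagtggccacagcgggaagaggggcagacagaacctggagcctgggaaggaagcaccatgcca
Hopx, chr5:77115074-77115373, minus strand: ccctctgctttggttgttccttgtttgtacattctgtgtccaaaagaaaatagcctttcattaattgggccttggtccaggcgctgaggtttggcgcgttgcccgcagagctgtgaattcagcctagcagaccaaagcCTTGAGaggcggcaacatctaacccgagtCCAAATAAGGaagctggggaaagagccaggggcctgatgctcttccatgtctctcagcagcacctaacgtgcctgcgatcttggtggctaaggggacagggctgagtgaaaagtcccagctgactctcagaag
Hopx, chr5:77095218-77095517, minus strand: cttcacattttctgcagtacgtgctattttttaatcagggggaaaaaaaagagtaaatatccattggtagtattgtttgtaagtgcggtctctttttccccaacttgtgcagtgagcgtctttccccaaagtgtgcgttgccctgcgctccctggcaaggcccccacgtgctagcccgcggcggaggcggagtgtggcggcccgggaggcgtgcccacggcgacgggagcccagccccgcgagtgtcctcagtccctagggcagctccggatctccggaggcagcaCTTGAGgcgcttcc
Pdpn, chr4:143299515-143299814, minus strand: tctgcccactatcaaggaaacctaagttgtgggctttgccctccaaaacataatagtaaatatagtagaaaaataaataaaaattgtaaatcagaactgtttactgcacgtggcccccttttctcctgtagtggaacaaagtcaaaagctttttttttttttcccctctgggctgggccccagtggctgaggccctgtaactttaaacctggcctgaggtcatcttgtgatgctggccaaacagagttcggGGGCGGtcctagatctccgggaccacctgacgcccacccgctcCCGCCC

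A CArG box started 200 bases before the Ager start and 83 bases before the upstream Hopx start. That box was in 1.63% of 32817 promoter windows of the same length, and in 2 of the 9 windows that RefSeq gives for 7 of the 8 genes. Both Hopx windows held an NKX2-1 core, searched as CTTGAG, which was in 15.9% of all windows and in no other window of the set. GC boxes, searched as GGGCGG, were in 4 of the 9 windows, those of Pdpn, Akap5, Aqp5 and Emp2, against 35.6% of all windows. The TEAD site, searched as GGAATG, was in 0 of the 9 windows, against 14.7% of all. The TATA box, searched as TATAAA, was in 0 of the 9, against 13.6% of all. These matches describe letters in the windows and not binding.

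Rtkn2 encodes rhotekin-2, a signalling scaffold of type 1 cells that is also known from lymphocytes (ENSMUSG00000037846, chromosome 10, 67815400 to 67895570). It had 69, 101 and 71 counts in SmMCll, 52, 36 and 35 in PASMCs, and 74, 136 and 120 in BSMCs. All PASMCs libraries lay below all others, while SmMCll and BSMCs overlapped. Rtkn2 was lower in PASMCs than in BSMCs (-1.38, SE 0.32, adjusted p = 0.0109), a call that ended on implied reads without scaling (adjusted p = 0.0535). Between SmMCll and PASMCs it differed by 0.95 (SE 0.32, adjusted p = 0.0652) and passed without BSMCs replicate 1 (adjusted p = 0.0377) or 2 (0.0494), when only these 2 groups were fitted (0.0240) and with array weights (0.0143).

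Akap5 encodes an anchoring protein that holds protein kinase A, protein kinase C and calcineurin at the membrane (ENSMUSG00000021057, chromosome 12, 76371665 to 76380927). Its counts were 58, 140 and 44 in SmMCll, 88, 38 and 59 in PASMCs, and 190, 185 and 127 in BSMCs. PASMCs lay below BSMCs, and SmMCll replicate 2 at 140 lay inside the BSMCs range. Akap5 was lower in PASMCs than in BSMCs (-1.48, SE 0.43, adjusted p = 0.0311) and in SmMCll than in BSMCs (-1.20, SE 0.43, adjusted p = 0.0427). Both calls were lost when certain single libraries were left out. Between PASMCs and BSMCs it was lost without BSMCs replicate 1 (adjusted p = 0.096) or PASMCs replicate 2 (0.119) or 3 (0.0627). Between SmMCll and BSMCs it was lost without BSMCs replicate 1 (adjusted p = 0.112) or 2 (0.0801), PASMCs replicate 3 (0.0547), or SmMCll replicate 1 (0.125) or 3 (0.17). On implied reads without scaling the adjusted p was 0.112 in PASMCs against BSMCs and 0.14 in SmMCll against BSMCs, and without trend and robust estimation it was 0.0642 and 0.0717. Array weights ended the call in PASMCs against BSMCs (adjusted p = 0.0578), and a replicate block that in SmMCll against BSMCs (0.0512).

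Aqp5, the water channel of the apical surface of type 1 cells and of airway glands (ENSMUSG00000044217, chromosome 15, 99488663 to 99492710), was at 168, 288 and 191 in SmMCll, 128, 122 and 234 in PASMCs, and 220, 271 and 252 in BSMCs. PASMCs replicate 3 lay among the BSMCs, and the other PASMCs libraries lay below all BSMCs. SmMCll overlapped both groups. The difference between PASMCs and BSMCs was -0.68 (95% interval -1.29 to -0.06, adjusted p = 0.100), and -0.98 without PASMCs replicate 3 (adjusted p = 0.0293). Against the other groups SmMCll differed by 0.44 from PASMCs (adjusted p = 0.364) and by -0.23 from BSMCs (adjusted p = 0.523).

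Cldn18, a claudin of alveolar tight junctions (ENSMUSG00000032473, chromosome 9, 99571514 to 99599320), was at 135, 302 and 174 in SmMCll, 140, 113 and 137 in PASMCs, and 158, 217 and 253 in BSMCs. PASMCs lay below BSMCs without overlap, as 17.6% of all tested genes did, but the difference of -0.66 was not called (95% interval -1.31 to -0.02, adjusted p = 0.119). SmMCll spanned both groups. It differed from PASMCs by 0.57 (adjusted p = 0.246) and from BSMCs by -0.10 (adjusted p = 0.811).

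Emp2, a tetraspan membrane protein that regulates integrins and caveolins (ENSMUSG00000022505, chromosome 16, 10099613 to 10131832), had the highest counts of the set and varied least. It stood at 3337, 3143 and 3260 in SmMCll, 3440, 3312 and 3372 in PASMCs, and 2304, 3085 and 2676 in BSMCs. All SmMCll and PASMCs libraries lay above all BSMCs. The differences were not called, at 0.34 for PASMCs against BSMCs (95% interval 0.09 to 0.59, adjusted p = 0.052) and 0.28 for SmMCll against BSMCs (0.03 to 0.53, adjusted p = 0.0641). Without BSMCs replicate 2 both passed, at 0.44 (adjusted p = 0.00447) and 0.39 (adjusted p = 0.00612), and with array weights at 0.40 (adjusted p = 0.0214) and 0.35 (adjusted p = 0.0195). With only genes reaching 50 in 3 libraries the first passed (adjusted p = 0.0492). Without BSMCs replicate 1 they were 0.23 (adjusted p = 0.165) and 0.18 (adjusted p = 0.214). Quantile normalization gave 0.24 (adjusted p = 0.104) and 0.11 (adjusted p = 0.420), cyclic loess 0.195 (adjusted p = 0.155) and 0.15 (adjusted p = 0.241), and implied reads without scaling 0.57 (adjusted p = 0.0720) and 0.46 (adjusted p = 0.0902). SmMCll and PASMCs differed by -0.06 (95% interval -0.30 to 0.19, adjusted p = 0.827).

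Pdpn, podoplanin, a mucin-like surface protein that binds the platelet receptor Clec1b (ENSMUSG00000028583, chromosome 4, 142994001 to 143026134), followed another pattern. Its counts were 780, 689 and 610 in SmMCll, 119, 134 and 197 in PASMCs, and 155, 75 and 156 in BSMCs. Every SmMCll library was above every other library, and PASMCs and BSMCs overlapped. Pdpn was higher in SmMCll than in PASMCs (2.23, SE 0.29, adjusted p = 0.000386) and than in BSMCs (2.49, SE 0.29, adjusted p = 7.43e-05). PASMCs differed from BSMCs by 0.26 (95% interval -0.38 to 0.91, adjusted p = 0.530), or by -0.086 without BSMCs replicate 2 (adjusted p = 0.787).

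Mesothelial markers, like Pdpn, were highest in SmMCll, but unlike Pdpn they also differed between PASMCs and BSMCs. The 10 mesothelial markers summed to 858 to 1042 CPM in SmMCll, 40.3 to 70.2 CPM in PASMCs and 97.7 to 223 CPM in BSMCs. Within SmMCll the libraries ranked alike for both, with Pdpn at 780, 689 and 610 counts and mesothelial markers at 1042, 1002 and 858 CPM. Msln, the mesothelial surface protein, averaged 1701 ± 127 in SmMCll, 9.3 ± 8.1 in PASMCs and 123 ± 69.6 in BSMCs. All 10 markers were higher in SmMCll than in PASMCs, and 9 were higher and 0 lower than in BSMCs. In PASMCs against BSMCs 0 were higher and 7 lower (median -2.24), where Pdpn was not called. Bnc1 and Muc16, which define mesothelium, were at 0 in all PASMCs libraries. Lymphatic endothelial markers, of cells that also use Pdpn, gave 4 higher and 0 lower of 6 in SmMCll against PASMCs and 3 higher and 0 lower against BSMCs, with Mmrn1 at 438 ± 38.7, 26 ± 9.0 and 21 ± 27.2 in SmMCll, PASMCs and BSMCs. Their sum ranged from 229 to 335 CPM in SmMCll, 145 to 183 CPM in PASMCs and 220 to 298 CPM in BSMCs. In SmMCll libraries 1 to 3 that sum was 229, 335 and 232 CPM, an order that Pdpn did not share. Fibroblasts, which also use Pdpn, gave 4 markers higher and 1 lower of 10 in SmMCll against PASMCs, with Pdgfra at 7386 ± 813, 1874 ± 178 and 325 ± 170 in the 3 groups. The fibroblast sum was 5967 to 6608 CPM in SmMCll, 4895 to 5426 CPM in PASMCs and 4368 to 5062 CPM in BSMCs. Over SmMCll libraries 1 to 3 it ran 5967, 6162 and 6608 CPM, the reverse of the Pdpn order. The part of these cells in the Pdpn difference was not tested.

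**Figure D2:**
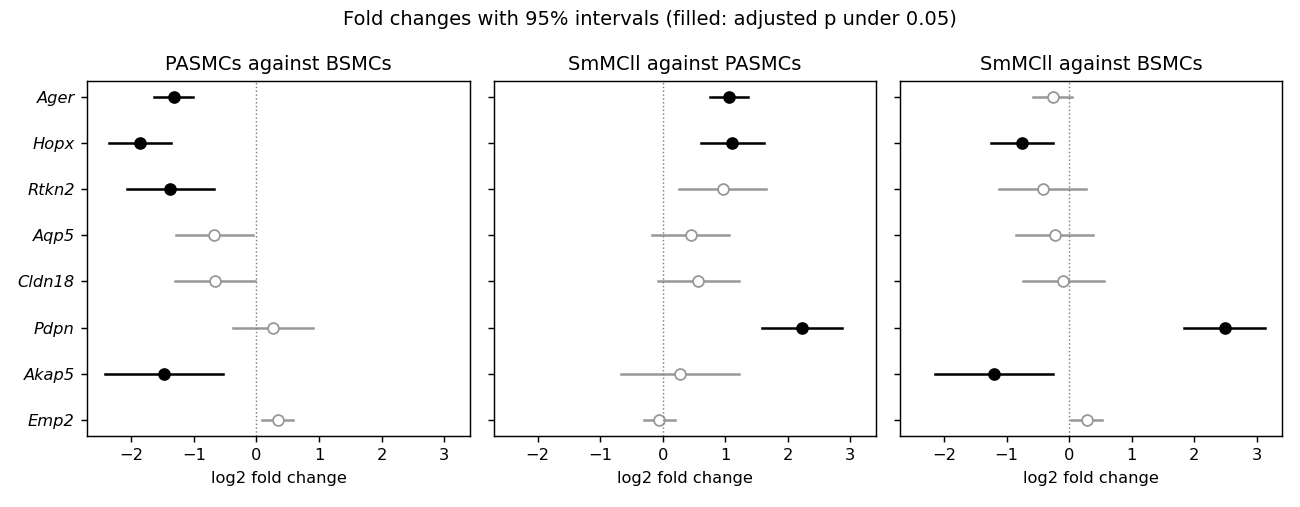
Log2 fold change (horizontal axis) of each gene in the 3 comparisons, with the 95% interval of the limma fit before adjustment; filled points have an adjusted p under 0.05. Hopx and Ager lie to the left in PASMCs against BSMCs and to the right in SmMCll against PASMCs, and Pdpn lies at 2.23 and 2.49 in the comparisons of SmMCll.

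Levels could be compared between genes only per length, as normalized counts per kilobase of exon. On that scale Ager was the highest of the 8 in SmMCll (549 ± 93.4) and in BSMCs (654 ± 16.6), and second to Emp2 in PASMCs (261 ± 21.5 against 390 ± 7.4 for Emp2). Pdpn at 381 ± 46.8 and Emp2 at 376 ± 11.3 did not differ beyond their spread in SmMCll. Hopx stood at 218 ± 48.4 per kilobase in SmMCll, 99.6 ± 16 in PASMCs and 369 ± 86.1 in BSMCs. Aqp5 and Cldn18 lay lower, at 83.0 and 45.7 per kilobase in SmMCll, 62.1 and 29.2 in PASMCs and 95.3 and 47.0 in BSMCs. Rtkn2 and Akap5 were lowest in each group, between 7.39 and 24.5 per kilobase on average, and overlapped each other. For scale, Acta2, the actin of smooth muscle, had 1374 ± 49.7, 1498 ± 91.6 and 1798 ± 286 per kilobase in SmMCll, PASMCs and BSMCs. Acta2 reached 1.67 implied reads per exonic base in its densest library, and no gene of the set went above 0.727.

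**Figure D3:**
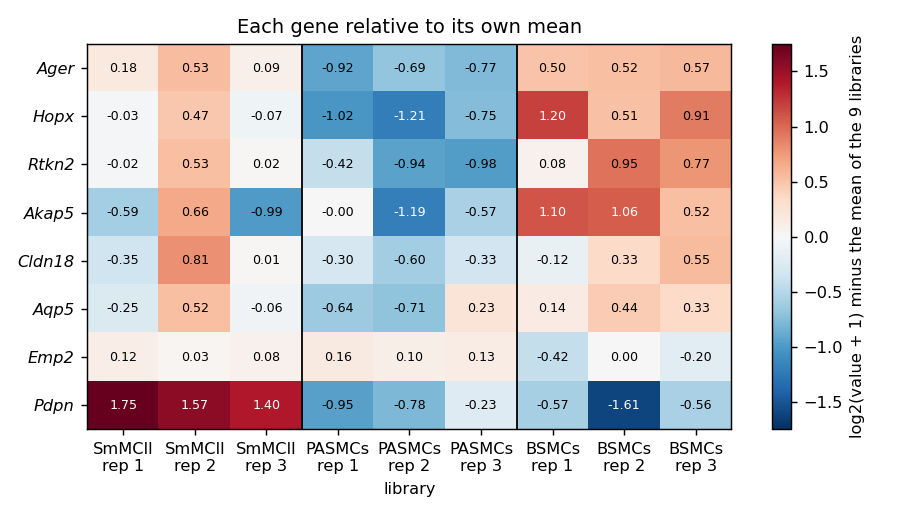
Log2 of value plus 1 of each gene in each library, minus the gene's mean over the 9 libraries, from blue (lower) to red (higher). Ager and Hopx share a pattern of blue in PASMCs, Pdpn is red in SmMCll alone, and Emp2 varies least.

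The ratio of each gene to Ager within a library separated the set in the same way. Rtkn2 kept nearly the same ratio to Ager in all groups, at 0.063 to 0.072 in SmMCll, 0.0599 to 0.102 in PASMCs and 0.054 to 0.0978 in BSMCs. Hopx over Ager was 0.267 to 0.296, 0.215 to 0.312 and 0.307 to 0.502 in SmMCll, PASMCs and BSMCs. Cldn18 over Ager was 0.188 to 0.275 in PASMCs and 0.115 to 0.176 in BSMCs, without overlap, and SmMCll spanned 0.123 to 0.215. Akap5 over Ager overlapped between all groups, at 0.043 to 0.100, 0.063 to 0.173 and 0.088 to 0.139 in SmMCll, PASMCs and BSMCs. Aqp5 over Ager was 0.153 to 0.205, 0.203 to 0.412 and 0.161 to 0.195 in the same groups. The ratios of Pdpn and Emp2 moved further. Pdpn over Ager was 0.491 to 0.712 in SmMCll, 0.223 to 0.347 in PASMCs and 0.054 to 0.113 in BSMCs. Emp2 over Ager was 2.24 to 3.17 in SmMCll, 5.51 to 6.75 in PASMCs and 1.68 to 2.22 in BSMCs. No test was run on these ratios. Within SmMCll, replicate 2 was the highest of its group for 6 of the 8 genes, and pan-epithelial markers summed to 385 CPM there, against 313 and 302 CPM in replicates 1 and 3. This was not particular to epithelium. Replicate 2 was also highest for vascular endothelial (1994 CPM), lymphatic endothelial (335 CPM), leukocyte (42.6 CPM) and alveolar type 2 (303 CPM) sums. It was not highest for mesothelial, club, fibroblast or smooth muscle sums.

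Similarity between genes was taken as the root mean square difference of their centred log2 values over the 9 libraries. It is not scaled to a gene's own spread, so genes that vary little lie close to each other whatever their pattern. The closest pairs within the set were Aqp5 with Cldn18 (0.27), Ager with Rtkn2 (0.30) and Ager with Hopx (0.33). Among 10353 other genes with a mean of at least 100, those closest to Ager were Lyn, a tyrosine kinase of the Src family (0.14), Ripply3 (0.18) and Tifa (0.18). Lyn averaged 330 ± 56.2 in SmMCll, 160 ± 21.0 in PASMCs and 392 ± 47.4 in BSMCs. Lyn was also closest to Rtkn2 (0.25). Hopx was most like Srgn (0.20), Cd74 (0.21) and Rgs10 (0.23), of which Srgn, serglycin, and Cd74, the MHC class II invariant chain, are abundant in blood cells. Gsta3 (0.19) and Ccl11 (0.22) were among the 3 genes closest to Pdpn. Gsta3, a glutathione transferase, averaged 671 ± 16.7 in SmMCll, 171 ± 18.3 in PASMCs and 130 ± 44.5 in BSMCs. The nearest genes to Akap5 were farther off, Rpl30 (0.38) and Dck (0.39), and Emp2 had the nearest neighbours of all, Glyr1 (0.06) and G6pdx (0.07) among them. Emp2 itself deviated least from its mean (root mean square 0.18, against 0.42 for Aqp5 to 1.17 for Pdpn). Its small distances therefore do not show a shared pattern. Aqp5 lay 0.24 from Dnajb14 and Cldn18 lay 0.24 from Mapkapk3.

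Other alveolar type 1 genes came from a list of 30 that includes genes shared with endothelium and mesothelium. They summed to 1719 to 1951 CPM in SmMCll, 1466 to 1535 CPM in PASMCs and 1622 to 1728 CPM in BSMCs. Cav1 had the highest counts of the list, at 4528 ± 317, 4488 ± 269 and 5198 ± 711 in SmMCll, PASMCs and BSMCs. It weighs heavily in the sum and was not called in any comparison. A sum without Cav1 was not taken. Gene by gene the calls were mixed between PASMCs and BSMCs. Of 29 tested, 4 were higher and 3 lower in PASMCs against BSMCs, with a median of -0.10. The higher ones included Scnn1b, a subunit of the epithelial sodium channel (1.89), Col4a4, a collagen of specialised basement membranes (1.47), and Sema3e (1.4). The lower ones were Krt7, a keratin of simple epithelia and mesothelium (-1.03), the cell cycle inhibitor Cdkn2b (-1.0) and Igfbp2 (-0.66), an insulin-like growth factor binding protein of mature type 1 cells. In SmMCll against PASMCs 9 were higher and 1 lower (median 0.56), led by Krt7 (2.15), Tspan8 (1.87) and Clic5 (1.80), with the neurotrophin Bdnf lower (-0.72). In SmMCll against BSMCs 13 were higher and 4 lower (median 0.85). Igfbp2 averaged 226 ± 30.3, 276 ± 73.0 and 426 ± 14.8 in SmMCll, PASMCs and BSMCs, and Clic5, a chloride channel protein, 489 ± 228, 130 ± 18.0 and 163 ± 35.0.

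Alveolar type 2 genes were highest in PASMCs, where Ager was lowest. Of 12 tested, 10 were higher and 0 lower in PASMCs against BSMCs, with a median of 1.38, and 0 were higher and 10 lower in SmMCll against PASMCs, with a median of -2.73. Against BSMCs, SmMCll had 2 higher and 9 lower. Their sum was 276 to 303 CPM in SmMCll, 949 to 1032 CPM in PASMCs and 436 to 689 CPM in BSMCs. Slc34a2, the phosphate carrier of type 2 cells, averaged 43.7 ± 9.1 in SmMCll, 918 ± 138 in PASMCs and 171 ± 54.5 in BSMCs. Sftpc, surfactant protein C, averaged 830 ± 50.4, 1432 ± 80.9 and 1623 ± 320 in the same groups and was not called between PASMCs and BSMCs (-0.16, adjusted p = 0.438). The 8 type 1 genes summed to 601 to 734 CPM in SmMCll, 519 to 558 CPM in PASMCs and 647 to 694 CPM in BSMCs, of which Emp2 was the largest part. Epcam, the adhesion molecule of epithelia, averaged 114 ± 59.5, 74 ± 28.8 and 66.7 ± 34.5 and was not called in any comparison. Of the 10 pan-epithelial genes 3 were higher and 2 lower in PASMCs against BSMCs, 2 and 2 in SmMCll against PASMCs, and 4 and 1 in SmMCll against BSMCs. Club cell genes gave 4 higher and 1 lower of 7, 1 and 2, and 4 and 1 in these comparisons.

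**Figure D4:**
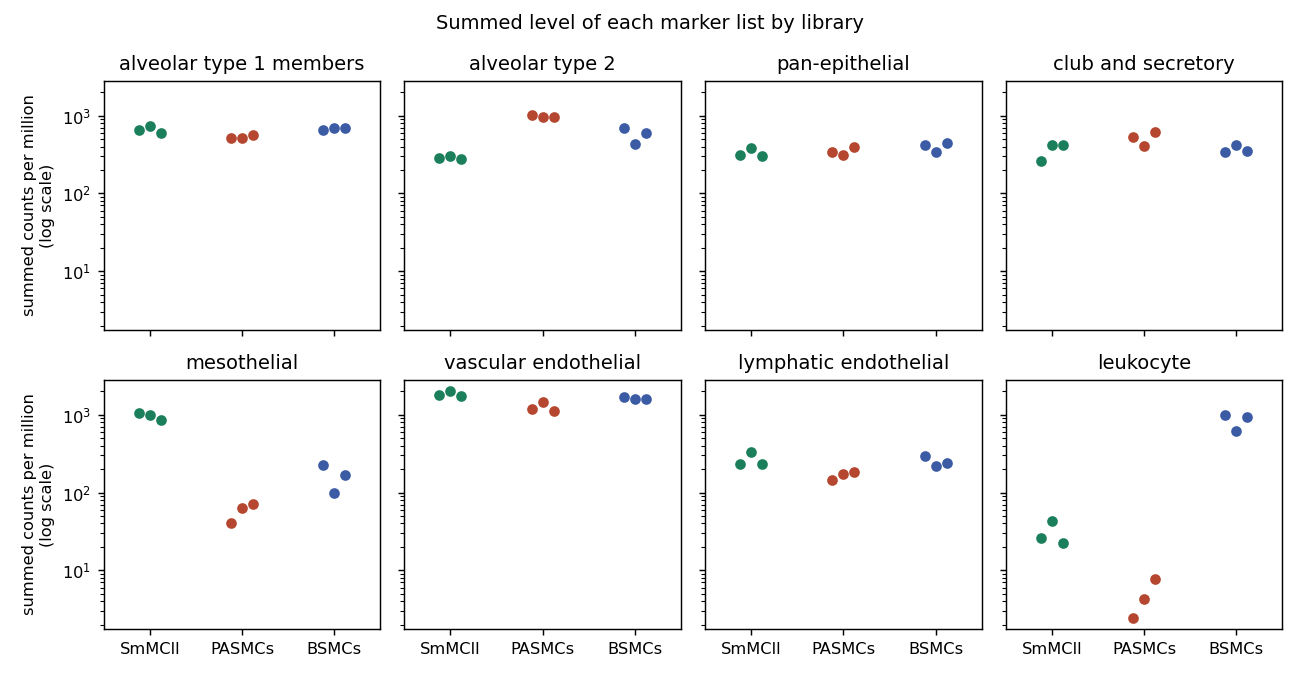
Summed level of 8 marker lists by library, in CPM of the library total (log axis), with SmMCll in green, PASMCs in red and BSMCs in blue; each point is a library. Alveolar type 2 markers are highest in PASMCs, mesothelial markers in SmMCll and leukocyte markers in BSMCs. The sum of the 8 type 1 genes, of which Emp2 is the largest part, varies less than any of these sums.

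Regulators of lung epithelium did not, as a set, share the order of Ager. Among them Tead2 did so in its means, at 270 ± 14.1, 244 ± 56.5 and 304 ± 35.5 in SmMCll, PASMCs and BSMCs. Cebpa was also lowest in PASMCs (85.3 ± 16.5, 65.3 ± 1.2 and 84.7 ± 30.4). Neither gene was called in any comparison. Nkx2-1, the lineage factor of lung epithelium, averaged 15 ± 7.2 in SmMCll, 70.3 ± 10.5 in PASMCs and 25.3 ± 13.3 in BSMCs. It was higher in PASMCs than in BSMCs (1.6, adjusted p = 0.0431) and lower in SmMCll than in PASMCs (-2.24, adjusted p = 0.0102). Of 17 regulators tested, 4 were higher and 1 lower in PASMCs against BSMCs, 0 and 4 in SmMCll against PASMCs, and 5 and 4 in SmMCll against BSMCs. Tead3, a DNA-binding partner of Yap1, fell in SmMCll to 144 ± 27.6, against 460 ± 25.1 in PASMCs and 588 ± 139 in BSMCs (-1.68 and -2.01). Wwtr1, the Hippo effector Taz, averaged 3085 ± 236, 2979 ± 442 and 2045 ± 750 in SmMCll, PASMCs and BSMCs. Of 10 response genes of Yap and Taz, 0 were higher and 2 lower, 1 and 2, and 2 and 3 in the 3 comparisons, with Ankrd1 lower in each (-0.54, -0.72 and -1.26).

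Partners and relatives of the 8 genes were taken from lists of their own. Among 12 RAGE ligands and downstream genes, 0 were higher and 3 lower in PASMCs against BSMCs, 2 and 0 in SmMCll against PASMCs, and 0 and 4 in SmMCll against BSMCs. S100a9, a RAGE ligand made by neutrophils, averaged 12.7 ± 9.0 in SmMCll, 0.3 ± 0.6 in PASMCs and 660 ± 153 in BSMCs, beside the leukocyte sums given above. Hmgb1, a nuclear protein that binds RAGE when released, averaged 850 ± 34.6, 860 ± 22.7 and 993 ± 77.6 and was not called. Of 9 genes around Hopx and serum response factor, 1 was higher in PASMCs against BSMCs, the coactivator Myocd (1.39), and 4 were lower in SmMCll against PASMCs, among them Myocd (-1.05) and Srf itself (-0.89). In SmMCll against BSMCs 2 of these were higher and 3 lower. Srf averaged 415 ± 20.2 in SmMCll, 770 ± 63.1 in PASMCs and 603 ± 23.7 in BSMCs.

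Tight junction genes gave 6 higher and 2 lower of 17 in PASMCs against BSMCs, 6 and 1 in SmMCll against PASMCs, and 10 and 0 in SmMCll against BSMCs. Cldn15, a pore-forming claudin, averaged 404 ± 44.3 in SmMCll, 19 ± 4.4 in PASMCs and 71.7 ± 48.7 in BSMCs, and Cldn3, a claudin of epithelia, 72.7 ± 13.9, 194 ± 51.2 and 103 ± 15.5. Among 10 aquaporin and sodium transport genes tested, 3 were higher in PASMCs against BSMCs, 2 in SmMCll against PASMCs and 3 in SmMCll against BSMCs, with 0 lower in each. Aqp1, the water channel of endothelium, averaged 2429 ± 293, 832 ± 69.1 and 1186 ± 356 in SmMCll, PASMCs and BSMCs. Of 12 vascular endothelial markers, 9 were higher and 1 lower in SmMCll against PASMCs (median 1.07). In SmMCll against BSMCs 4 were higher and 0 lower (median 0.25). In PASMCs against BSMCs 0 were higher and 5 lower. Their sum was 1733 to 1994 CPM in SmMCll, 1114 to 1466 CPM in PASMCs and 1585 to 1670 CPM in BSMCs.

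Among 8 podoplanin partners 0 were higher and 2 lower in PASMCs against BSMCs, 2 and 0 in SmMCll against PASMCs, and 3 and 1 in SmMCll against BSMCs. Clec1b, the receptor that podoplanin engages on platelets, averaged 19.3 ± 4.7 in SmMCll, 10 ± 7.0 in PASMCs and 83 ± 40.5 in BSMCs, and fell by 3.05 in PASMCs and by 1.95 in SmMCll against BSMCs. Ezr, ezrin, which links podoplanin to actin, was higher in SmMCll than in PASMCs (1.32) and BSMCs (1.79). Of 9 relatives and partners of Emp2, 2 and 0, 2 and 2, and 2 and 1 were higher and lower in PASMCs against BSMCs, SmMCll against PASMCs and SmMCll against BSMCs. Emp1, the closest named relative, averaged 2183 ± 342 in SmMCll, 1122 ± 236 in PASMCs and 513 ± 58.1 in BSMCs, and was called in each comparison (1.11 in PASMCs against BSMCs, 0.97 in SmMCll against PASMCs and 2.08 in SmMCll against BSMCs). Of 13 anchoring protein and kinase genes tested around Akap5, 1, 3 and 3 were higher and 0, 0 and 1 lower in these comparisons. Akap12, another anchor of protein kinase A, averaged 9019 ± 960 in SmMCll, 3754 ± 695 in PASMCs and 1037 ± 161 in BSMCs, where Akap5 was highest. Of 6 relatives and partners of Rtkn2, 1 was higher and 1 lower, 0 and 1, and 1 and 2 in the 3 comparisons. Rtkn, the related rhotekin, was higher in PASMCs than in BSMCs (0.85), where Rtkn2 was lower, and Rhob was lower in SmMCll than in PASMCs (-0.81) and BSMCs (-1.07).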

How the data were processed

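RNA was taken from sorted cells of 9 samples, with up to 10 ng per library for the SMART-Seq v4 kit, which does not mark strand. Per the submitters' processing notes, Trimmomatic 0.39, STAR 2.7.11a, Picard 3.1.1, featureCounts 2.0.4 and DESeq2 1.36.0 were used with build mm39, without the role of each. The values deposited by the authors, recorded here with the unit score, are read counts multiplied by 1 factor per library and rounded to whole numbers. This was inferred from the spacing of the values, which gave a factor above 1 in 3 columns and below 1 in 6. Dividing by it gave the implied reads. No replicate pair was a copy, with a chi-square per gene of 6.05 to 30.3.

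Genes reaching 10 in 3 or more libraries were tested on log2 of value plus 1, in 1 limma fit of 3 group means (trend and robust eBayes, limma 3.58.1, R 4.3.3), with Benjamini-Hochberg adjustment over all genes. The fit was checked on simulated data. P-values measure the spread between samples, which may be technical. Summed marker levels (CPM) are relative to the deposited library total. Exon lengths came from GENCODE vM21 and promoters from RefSeq (GRCm38.p6), matched by identifier and symbol. Python 3.11.15 with pandas 2.3.3 joined the tables, and matplotlib 3.10.9 drew the figures.

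The 8 genes, the other gene lists and the tests were chosen with earlier results of these data known. The genes named are the 8, checks of the sorted cells, up to 3 called genes in each direction of a list with the largest fold change (or the most abundant where none was called), and the 3 genes closest to each of the 8. The text names fewer, and some of the closest genes are not reported here. Outside that rule, Epcam, Sftpc, Wwtr1, Hmgb1 and Hopxos were named after their values were seen. Same-numbered replicates did not deviate together (correlations of -0.12 to 0.14), so the numbers were not taken as pairs.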

Additional observations from a re-analysis of the deposited data

How the results depend on the processing

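Over 20 alternative settings, 443 of 480 values for single genes of the set kept their direction and side of the threshold, 19 lost the call, 11 gained it and 7 turned in sign. None of the values that turned belonged to a called difference. They were Cldn18 in SmMCll against BSMCs (0.086 on implied reads, 0.05 without BSMCs replicate 3 and 0.16 without SmMCll replicate 1), Akap5 in SmMCll against PASMCs (-0.034 with array weights, -0.02 without PASMCs replicate 2 and -0.20 without SmMCll replicate 2) and Pdpn in PASMCs against BSMCs (-0.086 without BSMCs replicate 2). With 1 library left out, Pdpn in PASMCs against BSMCs ranged from -0.086 to 0.44, Akap5 in SmMCll against PASMCs from -0.20 to 0.62 and Cldn18 in SmMCll against BSMCs from -0.42 to 0.16. The calls of Ager and Hopx in PASMCs against BSMCs and in SmMCll against PASMCs, and of Pdpn in both comparisons of SmMCll, held in all 20.

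On implied reads without scaling, 2 genes of the set were called in PASMCs against BSMCs and 1 in SmMCll against BSMCs. Of the 15647 genes tested, 2581 and 4946 were called there, and the median of all genes moved to 0.27 and 0.22. Leaving out 1 library gave 3 to 5 of the 8 genes in PASMCs against BSMCs, 3 to 4 in SmMCll against PASMCs and 1 to 3 in SmMCll against BSMCs, where 1 remained without BSMCs replicate 1 or SmMCll replicate 1 or 3. Over all genes the main counts were 3451, 2539 and 6553 in these comparisons. Leaving out 1 library gave 1724 to 6698 in the first, with 2201 without BSMCs replicate 1, 6698 without BSMCs replicate 2, 1724 without PASMCs replicate 1 and 1999 without PASMCs replicate 2. It gave 1679 to 3219 in the second, with 1679 without SmMCll replicate 2, and 4373 to 8370 in the third. Fitting only the 2 groups compared gave 1926 in PASMCs against BSMCs and 4345 in SmMCll against PASMCs, and array weights gave 5082 in SmMCll against PASMCs. The cause was not tested. Calls in PASMCs against BSMCs were 2062 higher and 1389 lower, against 2017 and 2072 after quantile normalization, 2028 and 2030 after cyclic loess, and 1891 and 690 on implied reads. In SmMCll against BSMCs they were 3706 and 2847, against 3217 and 4049 after quantile normalization and 3392 and 1554 on implied reads.

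Under a replicate block, 3287, 2286 and 6350 genes were called in the 3 comparisons, and of the set 4, 3 and 2, with Akap5 lost in SmMCll against BSMCs (adjusted p = 0.0512). The correlations of deviations between same-numbered libraries did not show pairing. The planned rescaling by TMM was not run, because the values are not counts.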
